A study of Mus musculus with 12 samples.

Results

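The comparison described here set bone marrow macrophages with kinase-dead IRAK4 against wild-type bone marrow macrophages after 1 h of lipopolysaccharide (LPS), the glycolipid that coats Gram-negative bacteria. The series held 12 Affymetrix arrays in 6 groups of 2. The IRAK4-KD groups (KD) came from a mouse strain whose IRAK4 lacks kinase activity, and were sampled in 3 conditions (no LPS, LPS for 1 h, LPS for 4 h). The wild-type (WT) groups were sampled likewise. LPS was given at 1 µg/ml, and the cultures without LPS were kept for 4 h. All groups shared a culture medium that held FCS and L-929 conditioned medium, which is a source of the macrophage growth factor M-CSF. The sources used here do not give the allele, the background strain, or the age of the mice. The results use 4 of the 12 arrays, 2 of KD and 2 of WT after 1 h of LPS. The other 8 serve for the shared estimate of the spread and for setting the 1 h difference beside those of the other conditions. Of 17405 autosomal genes on the array with a single symbol, 12462 passed a filter on low values (a signal over the median of its array, on 2 or more of the 12 arrays) and were tested.

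IRAK4 is a serine/threonine kinase that joins the adaptor MyD88 when LPS engages Toll-like receptor 4, and also acts below the interleukin-1 receptor. Through TRAF6 and the kinase TAK1 this branch reaches NF-κB and the MAP kinases, which switch on immediate early genes, cytokines and chemokines in macrophages. Toll-like receptor 4 has another branch, through the adaptor TRIF, which activates IRF3 and the genes of type I interferon. The wild-type arrays served as the comparator for every value below.

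Values are linear MAS5 signals in arbitrary units. Differences are log2(signal + 4.4), KD minus WT, with the standard error (SE) of a limma fit. A gene was called at a Benjamini-Hochberg adjusted p under 0.05. At 1 h the array medians were 26.9 and 26.4 in KD, against 21.6 and 21.3 in WT, although the trimmed mean of every array was 150. In KD, 17.06% and 18.18% of the values lay under 4.4, against 19.69% and 20.65% in WT. On the log2 scale, 3' over 5' control signals at 1 h gave 1.03 on both KD arrays, against 1.09 and 1.17 on the WT arrays, for Gapdh, and 2.55 and 2.72 in KD, against 2.57 and 2.5 in WT, for Actb. Spearman's correlation between replicates, across probe sets, was 0.89 in KD and 0.895 in WT at 1 h. No probe set carried the symbol Irak4 alone (0 of 45101), and the targeted transcript gave no check of the strain labels. The series' design text calls the replicates biological, but no label says whether they are from separate mice or separate cultures, so a p-value here reflects how arrays of a group spread. Macrophage markers were present on all 4 arrays: 8 of 9 were on the array, none of the 8 lay under the median of all values, and their signals summed to 28485 and 28892 in KD, against 24009 and 27600 in WT.

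After 1 h of LPS, 193 of the 12462 genes differed between the strains (1.55%). Of these, 91 were higher in KD (0.73%) and 102 were lower (0.818%). The difference was at least 2-fold for 38 of the higher and 32 of the lower genes. On all 193 the 2 KD arrays lay wholly above or wholly below the 2 WT arrays, which the call nearly fixes. Over all tested genes, called or not, they did so for 44.6%. The median difference over all tested genes was 0.0359, and 90% of genes, between the 5th and 95th percentiles, lay between -0.602 and 0.967. The SE had a median of 0.446 for genes with a mean signal under the median of tested genes and 0.147 for those above it.

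**Figure D1:**
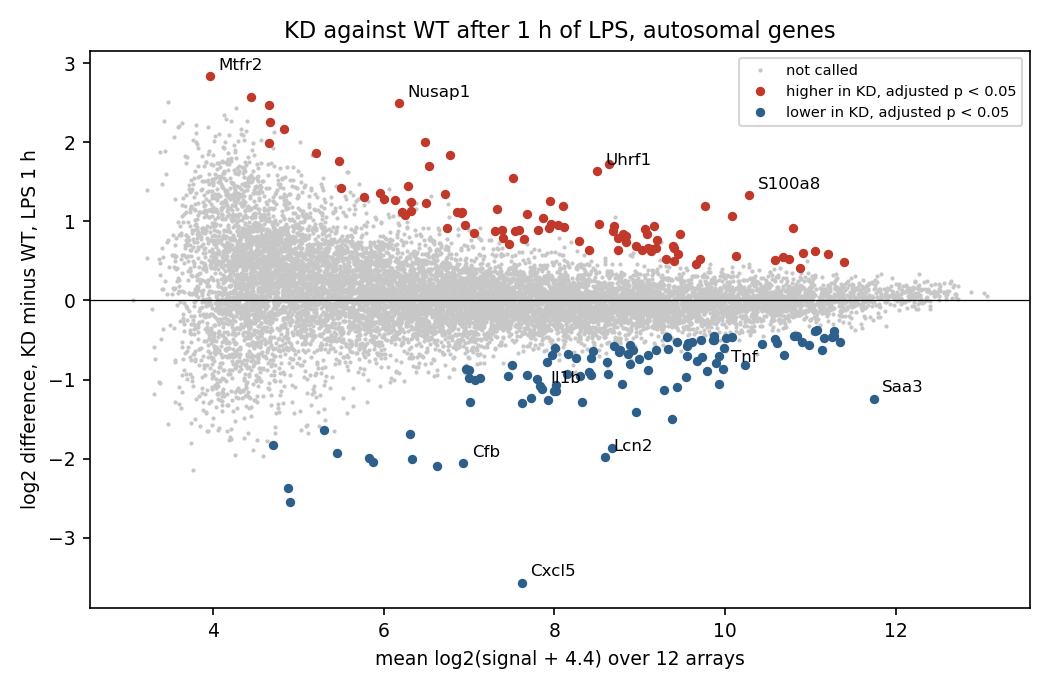
Each point is 1 of 12462 autosomal genes, with its mean log2(signal + 4.4) over 12 arrays on the x axis and its log2 difference, KD minus WT after 1 h of LPS, on the y axis; red points are the 91 genes higher in KD, blue points the 102 lower, grey points genes not called. The lowest point is Cxcl5 at -3.57, and the grey cloud widens toward low signal.

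How far these counts hold depended on 2 settings and on single arrays. When each array was centred on its own median, the median difference became -0.229, and 64 genes were higher and 1348 lower. Of the calls listed above, 102 of 102 lower and 59 of 91 higher genes were called again in the same direction after centring, and none turned its sign. Without a variance prior that follows signal, 10 of the 193 genes were called, 2 higher and 8 lower. The 2 higher were Urah and Nusap1, and the 8 lower were Cxcl5, Cfb, Lcn2, Ereg, Kcnq5, Arg2, Saa3 and AW112010 (the last outside the naming rule and chosen after its values were seen). Leaving out KD replicate 1 of 1 h gave 85 genes, KD replicate 2 of 1 h 79 genes and WT replicate 2 of 1 h 100 genes. In all 12 fits that left out 1 array, 46 genes were called, 21 higher and 25 lower. For named genes, the number of those 12 fits in which the call held is given as "fits".

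Genes that LPS raises in WT cells were set beside the 0.818% of all genes that were lower in KD. The response was read from WT arrays that the 1 h comparison does not use, those without LPS and after 4 h of LPS. On these, 410 genes were at least 2-fold higher after LPS (3.29% of those tested) and 546 at least 2-fold lower (4.38%). Of 74 genes raised 8-fold or more in WT at 4 h, 18 were lower in KD at 1 h (24.3%) and 3 were higher (4.05%), with a median difference of -0.472. Of 336 genes raised 2-fold to 8-fold, 25 were lower (7.44%) and 8 higher (2.38%), with a median of -0.127. Among the 546 genes that LPS lowered, 2 were lower in KD (0.366%) and 13 higher (2.38%). Their median of 0.0971 was -0.167 after centring, so its direction rests on the scaling. Of 9857 genes not called in WT at 4 h, 37 were lower in KD and 44 higher. These shares are descriptions with no test of their own.

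Chemokines, the secreted proteins that draw leukocytes into tissue, included the gene with the largest difference of all 12462. Of 21 tested chemokine genes, 4 were lower in KD and 0 higher; the list's median was -0.0847, against 0.0359 over all genes. Cxcl5, an ELR chemokine that attracts neutrophils, had signals of 73.2 and 51.2 in KD, against 873 and 688 in WT. Both KD arrays lay far under both WT arrays, an 11.9-fold difference (log2 difference -3.57 ± 0.21, adjusted p = 4.38e-08, 12 fits). Cxcl3, of the same ELR group, had 398 and 460.3 in KD, against 1418 and 1055 in WT (2.84-fold lower; log2 difference -1.51 ± 0.16, adjusted p = 2.86e-05, 12 fits). Ccl2, which attracts monocytes, had 763 and 744 in KD, against 1475 and 1663 in WT (2.07-fold lower; log2 difference -1.05 ± 0.11, adjusted p = 2.87e-05, 12 fits). The KD arrays of both genes lay close together and well under the WT arrays. Ccl7, a monocyte chemokine encoded near Ccl2, had 180.4 and 122 in KD, against 338 and 303 in WT (log2 difference -1.08 ± 0.21, adjusted p = 0.0136, 9 fits). Cxcl1 and Cxcl2, taken up here after their values were seen, did not pass: their differences were -0.15 ± 0.14 and -0.08 ± 0.13. Whether these 4 ELR genes differ from one another in their strain difference was not tested.

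Among the cytokines, Tnf, Il1a and Il1b were lower in KD. Of 19 tested cytokine genes, 3 were lower (15.8%, beside 0.818% of all genes) and 0 higher, with a median of -0.203. Tnf, which encodes tumour necrosis factor, had signals of 1748 and 1986 in KD, against 3128 and 3675 in WT (1.82-fold lower; log2 difference -0.86 ± 0.14, adjusted p = 0.00338, 10 fits). Il1b, which encodes interleukin-1β, had 334 and 372 in KD, against 700.3 and 857 in WT (2.18-fold lower; log2 difference -1.13 ± 0.18, adjusted p = 0.00313, 10 fits). Il1a, which encodes interleukin-1α, had 41.9 and 59.1 in KD, against 219 and 208 in WT (4.02-fold lower; log2 difference -2.01 ± 0.44, adjusted p = 0.0324, 6 fits). In each of the 3 genes the higher KD array stayed under the lower WT array. Il6 was at a low level in both strains at this time, with 41.4 and 37.9 in KD, against 40.6 and 63.2 in WT, and the arrays overlapped (log2 difference -0.33 ± 0.35, adjusted p = 0.758). Of 16 interleukin-1 family and inflammasome genes, 3 were lower (18.8%, beside 0.818% of all genes): Il1a, Il1b and Nlrp3, which encodes an inflammasome sensor. Nlrp3 had 239.5 and 312 in KD, against 639.8 and 524 in WT (log2 difference -1.07 ± 0.2, adjusted p = 0.0119, 10 fits).

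NF-κB components and feedback genes leaned the same way. Of 18 tested, 5 were lower in KD (27.8%, beside 0.818% of all genes), 0 higher, and 17 had a negative difference. The median was -0.494. After quantile normalization 3 were lower, and after centring 11. Tnfaip3 encodes A20, a ubiquitin-editing inhibitor of NF-κB signalling, and had 1059 and 1109 in KD, against 2344 and 2399 in WT (2.18-fold lower; log2 difference -1.13 ± 0.16, adjusted p = 0.000904, 12 fits). Nfkbiz encodes IκBζ, a nuclear cofactor for secondary response genes, and had 2410.4 and 2269.6 in KD, against 3901 and 3670.3 in WT (log2 difference -0.69 ± 0.11, adjusted p = 0.00266, 11 fits). Both pairs of KD arrays were tightly spaced below the WT pairs. Tnfaip2, a TNF-induced gene, had 208 and 260.3 in KD, against 389 and 511 in WT (log2 difference -0.92 ± 0.16, adjusted p = 0.00634, 10 fits), and its other tested probe sets -0.22 and -0.25, neither called. Traf1, an adaptor of TNF receptors, had a difference of -0.94 ± 0.22 (adjusted p = 0.0414, 5 fits). Tnip1, which encodes an A20-binding protein, had -0.5 ± 0.12 (adjusted p = 0.0493, 3 fits). Nfkbia, which encodes the inhibitor IκBα and was taken up after its values were seen, had 6529 and 6553 in KD, against 6238 and 7061 in WT (log2 difference -0.02 ± 0.09, adjusted p = 0.959), so the 2 strains overlapped at this feedback gene.

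Promoter windows were read for genes on both sides of the comparison, each from 250 bases before to 50 after the RefSeq start in GRCm38.p6. The windows below are shown because Cxcl3 and Tnfaip3 were among the chemokine and NF-κB feedback genes lower in KD in all 12 fits and hold letters that match a κB-like motif. The motif searched was GGGNNNTTC on either strand (GAANNNCCC on the other), and its matches are in capitals. In Cxcl3 the matches start at -73, -71 and -50 from the start site, and the first and second overlap. The window shown for Tnfaip3, 1 of 2 for that gene and the one with most matches, has them at -148, -11 and 34.
Cxcl3, chr5:90785851-90786150, plus strand: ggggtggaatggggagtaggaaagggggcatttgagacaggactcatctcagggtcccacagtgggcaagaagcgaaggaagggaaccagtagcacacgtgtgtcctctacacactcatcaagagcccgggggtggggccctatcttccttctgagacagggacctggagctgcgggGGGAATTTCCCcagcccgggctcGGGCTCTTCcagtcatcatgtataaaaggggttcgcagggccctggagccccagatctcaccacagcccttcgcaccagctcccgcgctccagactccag
Tnfaip3, chr10:19015361-19015660, minus strand: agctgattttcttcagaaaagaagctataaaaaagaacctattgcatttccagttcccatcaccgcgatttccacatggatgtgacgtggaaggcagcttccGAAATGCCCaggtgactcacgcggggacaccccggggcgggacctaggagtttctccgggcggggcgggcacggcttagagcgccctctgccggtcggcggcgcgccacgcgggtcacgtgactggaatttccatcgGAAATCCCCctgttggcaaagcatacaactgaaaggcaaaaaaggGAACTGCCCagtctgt
At least 1 such match was present in 16.0% of the windows of 25748 autosomal genes and in 17.7% of the 10038 tested genes with a window. It was present for 9 of 15 NF-κB list genes (60.0%), 7 of 14 chemokines and 6 of 13 cytokines (46.2%). Among called genes with a window it was present for 18 of 74 lower in KD (24.3%) and 16 of 67 higher in KD (23.9%). Not every gene lower in KD held one: the windows of Lcn2, Saa3 and Il1b had 0 matches. A match of letters is a description and not a bound site.

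Immediate early genes, the transcription factors that LPS switches on without new protein synthesis, had lower members as well. Of 24 tested, 3 were lower in KD (12.5%, beside 0.818% of all genes) and 0 higher, and 12 had an unadjusted p under 0.05. After centring 13 were lower. As deposited, 16 of 24 differences were negative and the median was -0.344. Ier3, which encodes a regulator of survival and ERK signalling, had 1001 and 1085 in KD, against 1661 and 2227 in WT (1.84-fold lower; log2 difference -0.88 ± 0.15, adjusted p = 0.00373, 10 fits). Csrnp1, a nuclear protein gene of this class, had 297 and 348 in KD, against 577 and 609 in WT (log2 difference -0.87 ± 0.2, adjusted p = 0.0396, 6 fits). Egr2, a zinc finger factor, had 2438 and 2387 in KD, against 3063 and 3239.6 in WT (log2 difference -0.38 ± 0.09, adjusted p = 0.0427, 4 fits). The arrays of the strains did not overlap in these 3 genes. Fos, an AP-1 subunit, had 2537 and 2915 in KD, against 3230 and 3558 in WT and did not pass (log2 difference -0.32 ± 0.12, adjusted p = 0.263).

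Lists of genes that end these signals had 1 lower member each (10.0% and 6.25%, beside 0.818% of all genes). Of 10 MAP kinase phosphatases, 1 was lower: Dusp4, which encodes a nuclear phosphatase of ERK and other MAP kinases, had 741 and 802 in KD, against 1223 and 1412 in WT (log2 difference -0.77 ± 0.11, adjusted p = 0.00138, 12 fits). The median of that list was -0.0231, with 6 negative and 4 positive differences. Of 16 regulators of cytokine mRNA decay, 1 was lower: Zfp36, which encodes tristetraprolin, a protein that marks AU-rich mRNAs for decay, had 1742 and 1849.6 in KD, against 2756 and 2490.4 in WT (log2 difference -0.54 ± 0.11, adjusted p = 0.0228, 8 fits). For each of both genes the 2 KD arrays sat under the 2 WT arrays. The mRNA decay list had 8 negative and 8 positive differences and a median of -0.0252, so it had no lean as a list.

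Inflammatory enzymes and effectors held the largest share of lower genes among the 21 pathway lists. Of 20 tested, 8 were lower in KD (Acod1, Arg2, Saa3, Lcn2, Cfb, Sod2, Clec4e and Nlrp3), 0 were higher, and 18 had a negative difference. The share lower was 40.0%, beside 0.818% of all genes. The list's median was -0.512, and 4 of the 8 calls held without a trend in the variance prior. Lcn2 encodes lipocalin-2, which withholds iron from bacteria by binding siderophores, and had 152 and 132 in KD, against 628 and 519 in WT (3.94-fold lower; log2 difference -1.98 ± 0.13, adjusted p = 1.71e-07, 12 fits). Cfb encodes complement factor B of the alternative pathway and had 63.7 and 68.8 in KD, against 275 and 305 in WT (4.16-fold lower; log2 difference -2.06 ± 0.22, adjusted p = 3.98e-05, 12 fits). Arg2, the mitochondrial arginase, had 254 and 309 in KD, against 704 and 800.1 in WT (2.65-fold lower; log2 difference -1.41 ± 0.13, adjusted p = 8.53e-06, 12 fits). Both KD arrays of these 3 genes lay far below both WT arrays. Saa3, an acute-phase serum amyloid, had 2048 and 2395 in KD, against 4979 and 5535 in WT (2.37-fold lower; log2 difference -1.24 ± 0.1, adjusted p = 1.03e-06, 12 fits). Clec4e encodes Mincle, a receptor for mycobacterial glycolipids, and had 1768 and 1820.2 in KD, against 2648 and 2897 in WT (log2 difference -0.63 ± 0.09, adjusted p = 0.000904, 12 fits). Nlrp3 was given above. Sod2, the mitochondrial superoxide dismutase, and Acod1, which makes itaconate, fall outside the naming rule and were chosen after their values were seen. Their differences were -0.52 ± 0.09 (adjusted p = 0.00401, 11 fits) and -0.38 ± 0.09 (adjusted p = 0.0423, 4 fits). Other tested probe sets of Sod2 had differences of -0.72 and -0.71, both called lower, and 0.29, not called.

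The overlapping list of acute-phase, complement and antimicrobial genes had 4 lower and 1 higher of 17, with a median of -0.278. These shares were 23.5% and 5.88%, beside 0.818% and 0.73% of all genes. Its lower members were Saa3, Lcn2, Cfb and Ptx3. Ptx3, which encodes the soluble pattern receptor pentraxin-3, had 296 and 183 in KD, against 373 and 384 in WT (log2 difference -0.69 ± 0.16, adjusted p = 0.047, 3 fits). The higher member was S100a8, described below with the neutrophil markers.

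The other genes furthest below WT had mixed roles. Ereg, which encodes the EGF receptor ligand epiregulin, had 174 and 133 in KD, against 551 and 577 in WT (3.64-fold lower; log2 difference -1.86 ± 0.17, adjusted p = 7.02e-06, 12 fits). Cd40, the co-stimulatory receptor for CD40 ligand, had 13.3 and 8.1 in KD, against 65.9 and 45.1 in WT (3.97-fold lower; log2 difference -1.99 ± 0.31, adjusted p = 0.00211, 12 fits). Slc36a2, an amino acid transporter gene, had 3.7 and 5.6 in KD, against 50.5 and 46.2 in WT (log2 difference -2.55 ± 0.44, adjusted p = 0.00469, 12 fits). Other tested probe sets of Cd40 had -0.55 and -0.42, neither called. The KD signals of Cd40 and Slc36a2 were under the array medians, where a small signal sets the size of the fold. Ednrb, the endothelin B receptor gene, had a difference of -1.7 ± 0.27 (12 fits), while another of its probe sets had 0.29. U90926, Scarf1, Bmper and Kcnq5 completed the 15 lowest called genes, at -1.93, -2.38, -1.64 and -1.83, beside the stromal genes Postn and Dcn given below. Of these 4, Scarf1 was called in 6 fits, Bmper in 4 and Kcnq5 in 2. KD signals of all 4 lay under the array medians as well. They were 6.3 and 6.6 for Scarf1 and 6.0 and 6.9 for Kcnq5. Bmper had 13.5 and 14.4, and U90926 15.4 and 21.6.

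**Figure D2:**
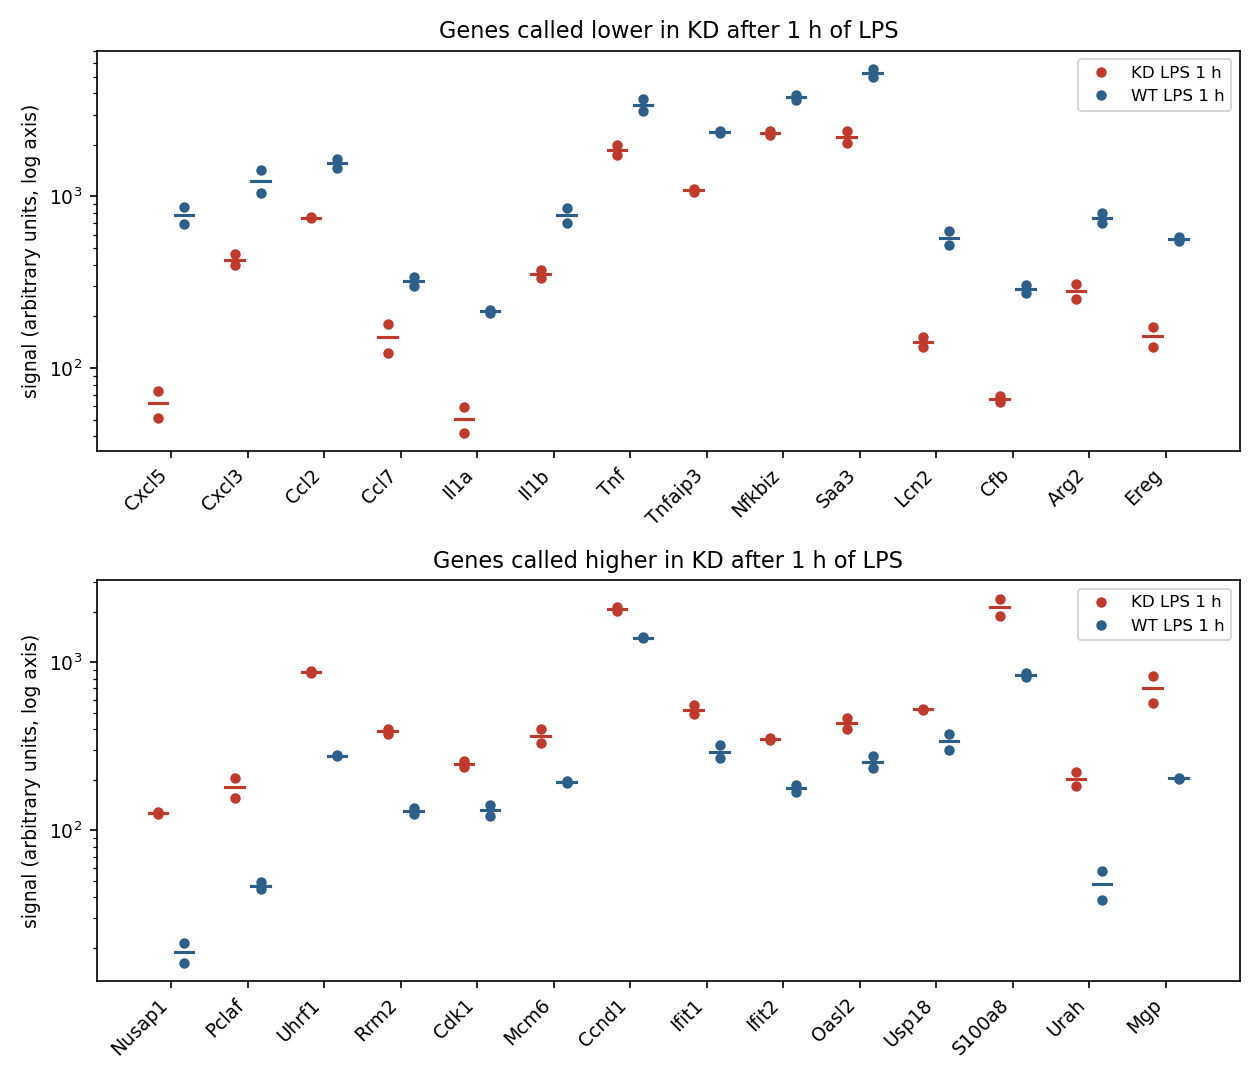
Signals on a log axis of genes called lower (upper panel) and higher (lower panel) in KD after 1 h of LPS; points are single arrays, KD in red at left and WT in blue at right, and bars the mean of 2 arrays. The 2 strains do not overlap in any gene shown, and the widest gap is that of Cxcl5, with 73.2 and 51.2 in KD and 873 and 688 in WT.

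The receptors and adaptors of the pathway itself gave no call. Of 26 Toll-like and interleukin-1 receptor pathway genes tested with limma, 0 were called, and 1 had an unadjusted p under 0.05, beside the 1.55% of all genes called. That share gives little room for calls in a list of this size. The median was -0.0481. After centring the arrays, 5 were lower and the median was -0.312. Tlr4, the LPS receptor gene, had 1386 and 1227 in KD, against 1475 and 1519 in WT (log2 difference -0.2 ± 0.1, adjusted p = 0.441). Cd14, the LPS co-receptor gene, had 4148 and 4261 in KD, against 3515 and 4047 in WT (log2 difference 0.16 ± 0.08, adjusted p = 0.469). Myd88 had 186 and 256 in KD, against 208 and 214 in WT (log2 difference 0.05 ± 0.17, adjusted p = 0.946), and the KD arrays lay on either side of the WT arrays. The IRAK family members Irak2 and Irak3 had differences of -0.1 ± 0.16 and -0.19 ± 0.13, and Traf6 had -0.41 ± 0.28. Other tested probe sets differed in sign: -0.01, 1.47 and 0.10 for Tlr4, 0.34 for Irak3, and -0.55, 0.84 and 0.61 for Traf6.

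Surface and identity genes mostly did not pass the test. Of 18 macrophage identity genes, Mrc1 alone was called, and it was lower (5.56%, beside 0.818% of all genes). Mrc1 encodes the mannose receptor CD206 and had 372 and 299 in KD, against 739.6 and 664 in WT (2.09-fold lower; log2 difference -1.06 ± 0.14, adjusted p = 0.000373, 12 fits). The list's median was 0.158, and -0.107 after centring, so its sign rests on the scaling. Of 20 antigen presentation and co-stimulation genes, 2 were lower (10.0%, beside 0.818% of all genes): Cd40, above, and Cd274. Cd274 encodes the inhibitory ligand PD-L1 and had 1601 and 1467 in KD, against 2117 and 2065 in WT (log2 difference -0.45 ± 0.1, adjusted p = 0.0431, 2 fits).

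As deposited, interferon-induced genes went against the inflammatory lists. Of 35 tested, 6 were higher in KD (17.1%, beside 0.73% of all genes) and 2 lower (5.71%, beside 0.818%). Of the 35, 28 had a positive difference and the median was 0.337. Quantile normalization gave 7 higher and 1 lower. Centring on array medians gave 2 higher and 2 lower with a median of 0.0727. Both the size of the shift and the balance of calls thus rest on the scaling. Ifit2, which encodes an antiviral protein that binds RNA, had 346 and 356 in KD, against 169 and 186 in WT (1.96-fold higher; log2 difference 0.97 ± 0.14, adjusted p = 0.000866, 12 fits). Ifit1, of the same family, had 555 and 490.2 in KD, against 269 and 320 in WT (1.77-fold higher; log2 difference 0.82 ± 0.14, adjusted p = 0.00431, 10 fits). Both KD arrays were above both WT arrays, and these were the 2 that stayed called after centring. Oasl2, an oligoadenylate synthetase-like gene, had 400.1 and 468 in KD, against 236 and 276 in WT (log2 difference 0.75 ± 0.15, adjusted p = 0.0173, 9 fits). Rtp4, an interferon-induced chaperone gene, had 1210.3 and 1208 in KD, against 682 and 814 in WT (log2 difference 0.7 ± 0.15, adjusted p = 0.0319, 6 fits). Usp18, which removes ISG15 from proteins, and the apoptosis-related gene Xaf1 were the other higher members. They fall outside the naming rule and were chosen after their values were seen, with 0.64 ± 0.15 (5 fits) and 0.59 ± 0.12 (9 fits).

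The 2 lower members of that list were Irf1 and Gbp3. Irf1, a transcription factor gene that NF-κB also drives, had 509 and 504 in KD, against 821 and 951 in WT (1.74-fold lower; log2 difference -0.8 ± 0.16, adjusted p = 0.0199, 9 fits). Gbp3, a guanylate-binding protein gene, had 117 and 106 in KD, against 179 and 186 in WT (log2 difference -0.69 ± 0.16, adjusted p = 0.047, 2 fits).

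The window of Ifit1 is shown because it belongs to a higher gene and holds 3 matches, in capitals, to an ISRE-like motif, GAAANNGAA on either strand (TTCNNTTTC on the other). The matches start at -109, -103 and -84 from the start site, and the first and second overlap.
Ifit1, chr19:34640639-34640938, plus strand: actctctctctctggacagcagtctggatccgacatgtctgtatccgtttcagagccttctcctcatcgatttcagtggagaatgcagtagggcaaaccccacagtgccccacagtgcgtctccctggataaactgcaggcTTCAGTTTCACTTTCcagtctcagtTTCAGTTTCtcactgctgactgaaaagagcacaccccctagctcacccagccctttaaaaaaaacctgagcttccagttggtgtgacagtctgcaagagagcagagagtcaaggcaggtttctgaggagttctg
This motif was in 9.73% of all autosomal windows, 8.68% of those of tested genes and 15 of 27 interferon list genes with a window (55.6%). Among called genes with a window it was in 15 of 67 higher in KD (22.4%) and 10 of 74 lower in KD (13.5%). The window of Ifit2 that was read had 0 matches.

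Cell cycle genes had higher members as well. Of 28 tested, 4 were higher in KD (14.3%, beside 0.73% of all genes) and 0 lower, 25 had a positive difference and the median was 0.588. It was 0.324 after centring, with 3 genes higher. Quantile normalization gave 6 higher. Rrm2, the small subunit of ribonucleotide reductase, had 375 and 403 in KD, against 125 and 135 in WT (2.93-fold higher; log2 difference 1.55 ± 0.22, adjusted p = 0.000878, 12 fits). Cdk1, the mitotic kinase, had 237 and 257 in KD, against 141 and 122 in WT (log2 difference 0.89 ± 0.18, adjusted p = 0.0166, 9 fits). Mcm6, a subunit of the replicative helicase, had 401 and 331 in KD, against 197 and 191 in WT (log2 difference 0.89 ± 0.17, adjusted p = 0.0136, 9 fits). Each of these 3 genes was higher on both KD arrays than on either WT array. Ccnd1, which encodes the growth factor-driven cyclin D1, had 2138 and 2002 in KD, against 1407 and 1388 in WT (log2 difference 0.56 ± 0.1, adjusted p = 0.00813, 10 fits), and was not called after centring.

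Further genes of replication and mitosis stood among the 15 called genes with the highest differences. Nusap1, a spindle protein gene, had 125 and 129 in KD, against 21.4 and 16.4 in WT (5.66-fold higher; log2 difference 2.5 ± 0.25, adjusted p = 1.76e-05, 12 fits). Uhrf1, which brings DNA methyltransferase to replicated DNA, had 863 and 885 in KD, against 277 and 280.3 in WT (3.1-fold higher; log2 difference 1.63 ± 0.19, adjusted p = 0.000132, 12 fits), while another of its tested probe sets had 0.08. Pclaf, whose product binds the replication clamp PCNA, had 204 and 157 in KD, against 44.9 and 49.1 in WT (3.57-fold higher; log2 difference 1.84 ± 0.24, adjusted p = 0.000345, 12 fits). Both KD arrays of these 3 genes lay above both WT arrays. Prc1, a cytokinesis regulator, Pbk, a mitotic kinase, and Cenph, a centromere protein gene, had differences of 1.7 ± 0.29 (11 fits), 1.77 ± 0.33 (9 fits) and 1.87 ± 0.39 (8 fits).

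Pclaf is shown because its window holds a pair of matches, in capitals, to an E2F-like motif, GCGGGAA on either strand (TTCCCGC on the other), starting at -5 and 22 from the start site.
Pclaf, chr9:65890073-65890372, plus strand: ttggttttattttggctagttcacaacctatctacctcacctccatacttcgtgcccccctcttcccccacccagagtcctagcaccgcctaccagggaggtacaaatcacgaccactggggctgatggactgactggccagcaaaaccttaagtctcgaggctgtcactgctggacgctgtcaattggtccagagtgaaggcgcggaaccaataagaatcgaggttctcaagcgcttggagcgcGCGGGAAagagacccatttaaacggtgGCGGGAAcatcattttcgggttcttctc
This motif was in 5.34% of all autosomal windows, 9.33% of those of tested genes, 4 of 22 cell cycle genes with a window (18.2%) and, of called genes, 10 of 67 higher in KD (14.9%) and 5 of 74 lower in KD (6.76%). The windows of Rrm2 and Nusap1 had 0 matches.

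The remaining genes among the 15 highest called were no single group. Urah, a uric acid pathway hydrolase gene, had 221 and 185 in KD, against 38.6 and 57.6 in WT (4.0-fold higher; log2 difference 2.0 ± 0.25, adjusted p = 0.000275, 12 fits). Mgp, which encodes the calcification inhibitor matrix Gla protein, had 825 and 572 in KD, against 204 and 204 in WT (3.32-fold higher; log2 difference 1.73 ± 0.19, adjusted p = 3.98e-05, 12 fits). In both genes the lower KD array was over 2-fold above the higher WT array. The other 6 (Mtfr2, Nkain4, 1700022A21Rik, Col7a1, Cdca2 and Trim45) had WT signals of at most 12.5 and KD signals of at most 52.3. Their differences of 1.99 to 2.84 were called in 2 to 8 fits, and 9 of the 91 higher genes were under the array median on both WT arrays. Mtfr2, with 43.3 and 32.1 in KD, was the 1 higher gene over the array median on the 2 KD arrays of 1 h alone. It thus entered the test only through the group where it was high, and its place as the highest difference carries that limit.

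Of the marker lists of other cell types that a bone marrow culture can hold, those of stromal cells, neutrophils and dendritic cells had called members and the other 7 had none. In bulk RNA, fewer cells of a type and less RNA per cell cannot be told apart. Of 15 tested stromal markers, 5 were lower in KD (Postn, Dcn, Col5a2, Col1a1 and Acta2) and 2 higher (Col6a2 and Thbs2). These shares were 33.3% and 13.3%, beside 0.818% and 0.73% of all genes. Signals of the 16 stromal markers on the array summed to 6142 and 4983 in KD, against 6767 and 6919 in WT; Lum was under the median of all values. Postn, the matrix protein periostin, had 25.7 and 55.2 in KD, against 176 and 176 in WT (4.26-fold lower; log2 difference -2.09 ± 0.29, adjusted p = 0.000801, 12 fits). Dcn, the proteoglycan decorin, had 43.9 and 9.0 in KD, against 91.4 and 109.6 in WT (log2 difference -2.04 ± 0.43, adjusted p = 0.0213, 9 fits). Col1a1, a chain of type I collagen, had 951 and 766 in KD, against 1419.7 and 1361 in WT (log2 difference -0.7 ± 0.14, adjusted p = 0.0173, 9 fits). These 3 matrix genes were lower on both KD arrays, with KD replicates of Dcn far apart. In the other direction, Thbs2, which encodes thrombospondin-2, had 586 and 437 in KD, against 266 and 261 in WT (log2 difference 0.93 ± 0.18, adjusted p = 0.0117, 9 fits; other tested probe sets 0.16 and 0.94, neither called), and Col6a2 a difference of 0.95 ± 0.19 (9 fits). The part of stromal cells in the lower chemokine, cytokine and matrix signals was not tested.

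Neutrophil markers summed to 2473 and 3016 in KD, against 1454 and 1600 in WT. S100a8, a subunit of calprotectin, made up most of each sum, with 1888 and 2390.2 in KD, against 868 and 817 in WT (2.52-fold higher; log2 difference 1.33 ± 0.12, adjusted p = 6.81e-06, 12 fits). Of the 11 on the array, S100a9, Mpo, Ctsg, Ltf, Ngp and Cxcr2 were under the median of all values on the 4 arrays, and 4 were tested. Of the 4 tested, 2 had a positive and 2 a negative difference, and S100a8 alone was called. Mmp8 had 445 and 505 in KD, against 486 and 682 in WT. Camp had 47.4 and 19.6 in KD, against 55.2 and 56.7 in WT. Elane had 33.1 and 31.3 in KD, against 6.2 and 12.9 in WT. After centring, 1 marker was higher and 1 lower. Dendritic cell markers summed to 220.6 and 250.1 in KD, against 128.6 and 146.3 in WT. Here Itgax, which encodes CD11c and is also made by macrophages, was called higher, with 146 and 166 in KD, against 54.3 and 87.6 in WT (log2 difference 1.12 ± 0.25, adjusted p = 0.034, 7 fits), and 6 of 8 (Flt3, Ccr7, Siglech, Xcr1, Batf3 and Cd209a) were under that median. Marker lists of T and NK cells, B cells, endothelial cells, erythroid cells, mast cells and basophils, megakaryocytes and osteoclasts had 0 called members of 3, 2, 4, 2, 3, 4 and 6 tested. Beside the 1.55% of all genes called, lists this short leave little room for a call. Of 9 T and NK cell markers on the array 3 were tested, and of 8 B cell markers 2. At an unadjusted p under 0.05 limma gave 0, 0, 2, 0, 0, 1 and 1.

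Metabolic and ribosomal lists, and the SOCS, JAK and STAT list, had no called gene at 1 h, beside the 1.55% of all genes called, a share that gives little room for calls in lists of this size. There were 0 calls among 20 sterol and lipid genes, 18 glycolysis and hypoxia genes, 13 ribosomal protein genes, 22 oxidative phosphorylation genes and 16 SOCS, JAK and STAT genes. Limma gave 3, 5, 2, 3 and 4 at an unadjusted p under 0.05. After centring, 3, 3, 1, 7 and 5 were lower and 0 higher, and after quantile normalization 1 sterol and lipid gene was higher. Of 21 unfolded protein and stress response genes, 1 was lower (4.76%, beside 0.818% of all genes): Hmox1. Hmox1 encodes the haem-degrading heme oxygenase-1 and had 2358 and 2402 in KD, against 3242 and 3399 in WT (log2 difference -0.48 ± 0.1, adjusted p = 0.0166, 8 fits). Of 25 protease and coagulation genes, 1 was lower (4.0%, beside 0.818% of all genes): Adamts4, a metalloprotease gene. Adamts4 had 70.5 and 40.8 in KD, against 100 and 180 in WT (log2 difference -1.25 ± 0.24, adjusted p = 0.0132, 10 fits), while another tested probe set had -0.15.

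**Figure D3:**
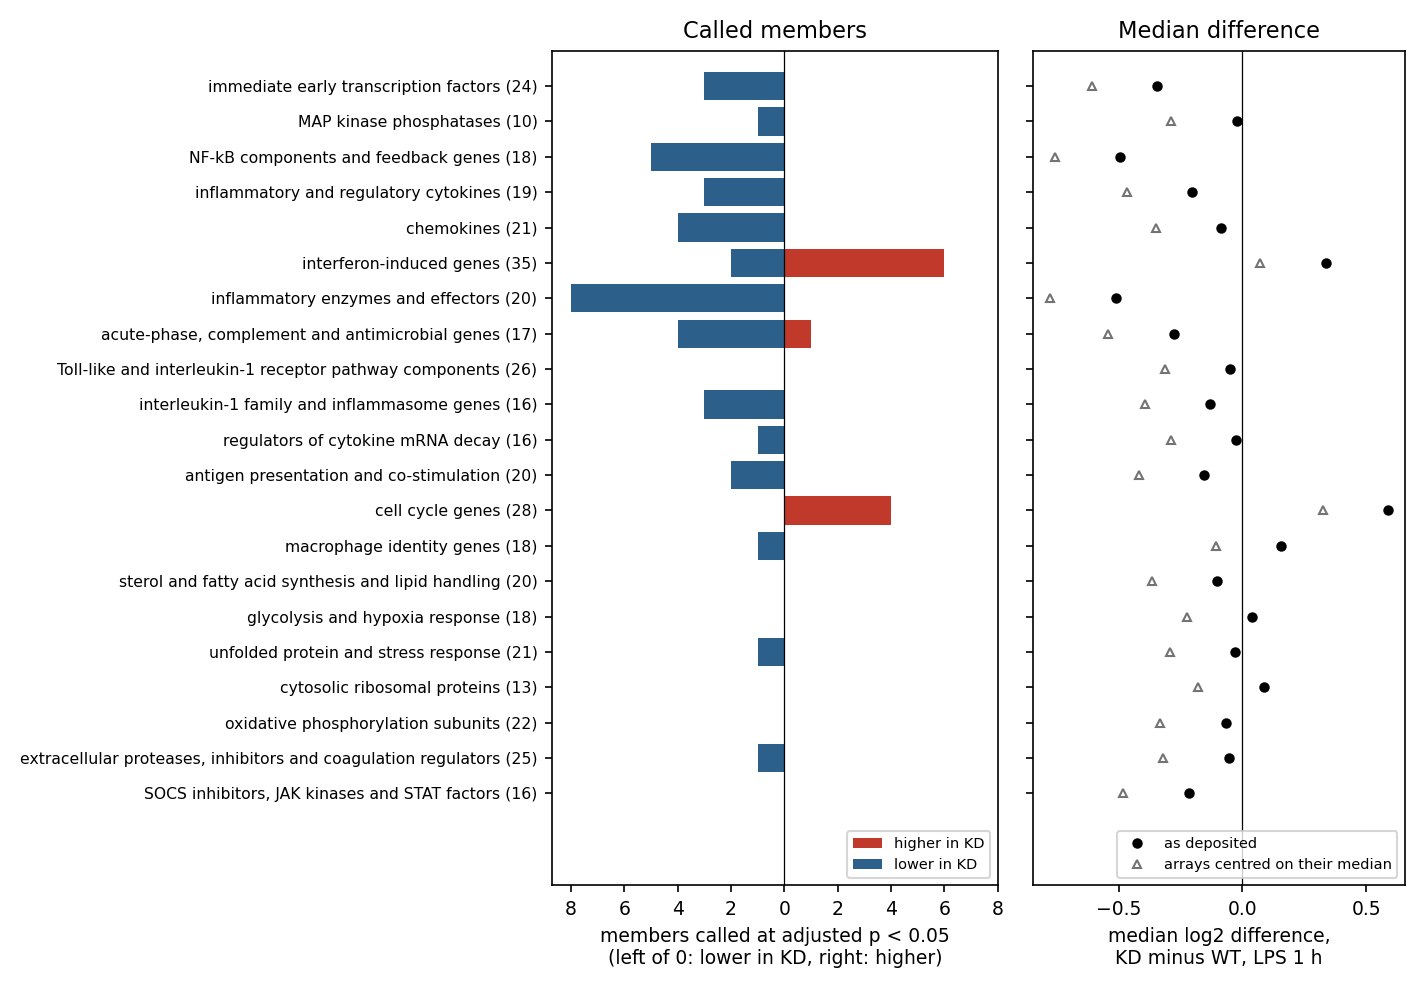
Left, members of 21 gene lists called higher (red, right of 0) or lower (blue, left of 0) in KD after 1 h of LPS, with the number tested in brackets; right, the median log2 difference of each list, KD minus WT, as deposited (filled circles) and after centring each array on its median (open triangles). Lower calls peak at 8 of 20 in the inflammatory enzymes and effectors and higher calls at 6 of 35 in the interferon-induced genes; the medians of 5 lists were above 0 as deposited and 2 after centring.

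Part of the 1 h difference was also present without LPS. Strains without LPS were compared on other arrays, and 762 genes were called there (6.11%), 329 higher in KD (2.64%) and 433 lower (3.47%). Of the 91 genes higher in KD at 1 h, 40 were also higher without LPS, and of the 102 lower, 41 were also lower. After 4 h of LPS, 868 genes were called (6.97%), 537 higher (4.31%) and 331 lower (2.66%). Of the 91, 57 were higher at 4 h as well, and of the 102, 53 were lower. In all 3 conditions 35 genes were higher and 22 lower. At 1 h alone, 28 were called higher and 27 lower, although a gene called in 1 condition and not in another is not thereby shown to differ between them. Across 12462 genes, the 1 h difference had a Pearson correlation of 0.257 with that without LPS and 0.304 with that at 4 h (Spearman 0.24 and 0.315). These are given as descriptions over genes that share arrays within each comparison.

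Among genes called in the same direction in all 3 conditions, those with the largest 1 h differences were lower for Cxcl5, Postn, Cfb, Lcn2 and Ereg and higher for Nusap1, Urah and Pclaf. Lcn2 had 142 and 145 in KD, against 661 and 689.6 in WT, without LPS, and 297 and 290.1 in KD, against 1294 and 1379 in WT, after 4 h of LPS. Its log2 differences of -2.2 without LPS, -1.98 at 1 h and -2.17 at 4 h were close to one another. Cfb gave -2.06, -2.06 and -1.9 in the same order, and Pclaf 1.77, 1.84 and 1.79. Of the lists, effectors had 7 of 20 lower in KD without LPS and 1 higher, beside 3.47% of all genes lower. Acute-phase genes had 6 of 17 lower and 2 higher, stromal markers 7 of 15 lower and 0 higher. Cell cycle genes had 10 of 28 higher and 1 lower, beside 2.64% of all genes higher. Cytokines had 1 of 19 lower and 2 higher. Differences without LPS were -1.56 for Ccl7, -1.44 for Saa3, -1.21 for Mrc1 and -1.12 for Col1a1. They were 1.74 for Rrm2, 1.63 for Itgax and 1.29 for S100a8.

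Other genes had a strain difference after 1 h of LPS unlike that without LPS. The test was the interaction, the 1 h difference minus that without LPS, which shares its 1 h arrays with the comparison above. The cultures without LPS were kept for 4 h, so LPS and time in culture cannot be told apart in it. Over all genes 58 were called (0.465%), 32 with a positive value (0.257%) and 26 with a negative one (0.209%). Of the 193 genes called at 1 h, 18 were among them, 5 higher and 13 lower in KD at 1 h. Without a trend in the variance prior limma called 0 genes (1089 at an unadjusted p under 0.05), so each interaction call with no LPS named here ended under that setting. Without KD replicate 1 of 1 h the whole count was 8, and without KD replicate 1 of no LPS 128.

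Il1b crossed over between these conditions. Without LPS it had 30.8 and 41.6 in KD, against 8.0 and 10.8 in WT, a log2 difference of 1.55 ± 0.18 (adjusted p = 6.85e-05). At 1 h its difference was -1.13, and the interaction was -2.68 ± 0.26 (adjusted p = 6.54e-05). After 4 h it had 329 and 412 in KD, against 2941 and 2547 in WT (-2.88 ± 0.18). KD cells thus carried the higher Il1b signal without LPS and the lower one after 1 h and 4 h. The WT signals without LPS lay under the medians of their arrays (22 and 21.8). The sizes of that difference and of the interaction therefore rest on dim signals.

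Cxcl5 was lower in KD throughout, most at 1 h. It had 11.7 and 19.5 in KD, against 40.7 and 32.4 in WT, without LPS (-1.05 ± 0.21), and 718 and 598 in KD, against 2207 and 2121 in WT, at 4 h (-1.72 ± 0.21). The interaction with no LPS was -2.51 ± 0.3 (adjusted p = 0.000773), and that of 4 h minus 1 h was 1.85 ± 0.3 (adjusted p = 0.00661). The KD signal at 4 h was thus closer to WT than at 1 h. Without LPS the KD signals of Cxcl5 lay under the medians of their arrays (26.2 and 25), so the size of that difference rests on dim signals.

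Tnf, Arg2, Csrnp1, Nfkbiz, Tnip1 and Egr2 also had a 1 h difference below that without LPS. Tnf had 127 and 190.1 in KD, against 134 and 131 in WT, without LPS, arrays that overlapped, and the interaction was -1.08 ± 0.2 (adjusted p = 0.0224). For Arg2 it was -1.07 ± 0.19 (adjusted p = 0.0192), for Csrnp1 -1.37 ± 0.28 (adjusted p = 0.0414) and for Nfkbiz -0.75 ± 0.16 (adjusted p = 0.0448). Egr2 turned: its difference was 0.49 ± 0.09 without LPS (adjusted p = 0.00314) and -0.38 at 1 h.

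The interferon-induced gene Ifit2 went the opposite way. It had 133 and 143 in KD, against 153 and 128 in WT, without LPS, and the interaction was 0.99 ± 0.19 (adjusted p = 0.031). At 4 h it had 1194 and 1283 in KD, against 1576 and 1403 in WT, so the KD arrays were above WT at 1 h and no longer at 4 h. The interaction of 4 h minus 1 h, called for 99 genes in all (0.794%; 53 positive, 0.425%, and 46 negative, 0.369%), was -1.23 ± 0.19 for Ifit2 (adjusted p = 0.00457). Without a trend in the variance prior limma called 1 gene of this interaction, Fos. Ifit1, Oasl2, Rtp4 and Xaf1 had called values of -0.96 ± 0.2, -1.06 ± 0.22, -1.06 ± 0.22 and -0.88 ± 0.18. At 4 h, 1 gene of the 35 tested in the interferon list was higher in KD and 7 lower, beside 4.31% and 2.66% of all genes.

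**Figure D4:**
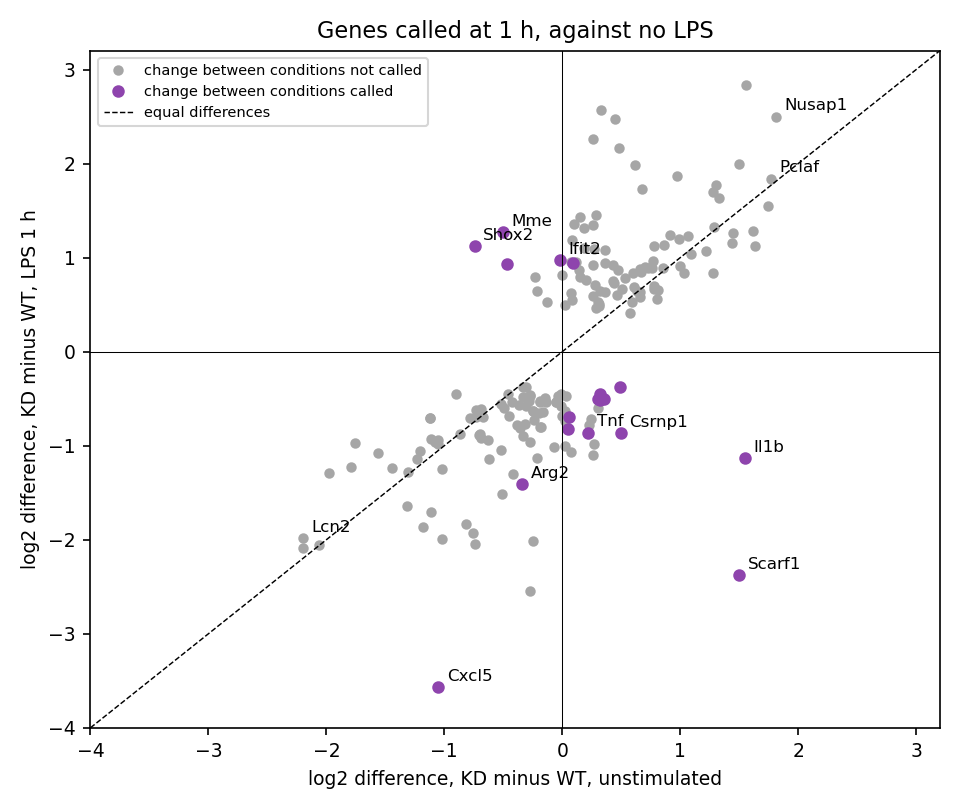
Each point is 1 of the 193 genes called at 1 h, with the log2 difference, KD minus WT, without LPS on the x axis and after 1 h of LPS on the y axis; purple points are the 18 with a called interaction and the dashed line marks equal differences. Il1b and Scarf1 lie right of 0 and below it, and Cxcl5 is the lowest point.

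Inflammatory lists, like all genes, gave more lower calls at 4 h than at 1 h. At 4 h, 10 of 18 NF-κB list genes were lower, 9 of 19 cytokines, 8 of 21 chemokines and 14 of 20 effectors, beside 2.66% of all genes. At 1 h these numbers were 5, 3, 4 and 8, beside 0.818%. Il6 and Fos, not called at 1 h, had the interactions of 4 h minus 1 h with the largest sizes. Il6 had 106 and 88.6 in KD, against 1722 and 1779 in WT, at 4 h, and an interaction of -3.79 ± 0.5 (adjusted p = 0.000948). Fos had 1416 and 1467 in KD, against 163 and 136 in WT, at 4 h, and 3.56 ± 0.17 (adjusted p = 8.62e-10).

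**Figure D5:**
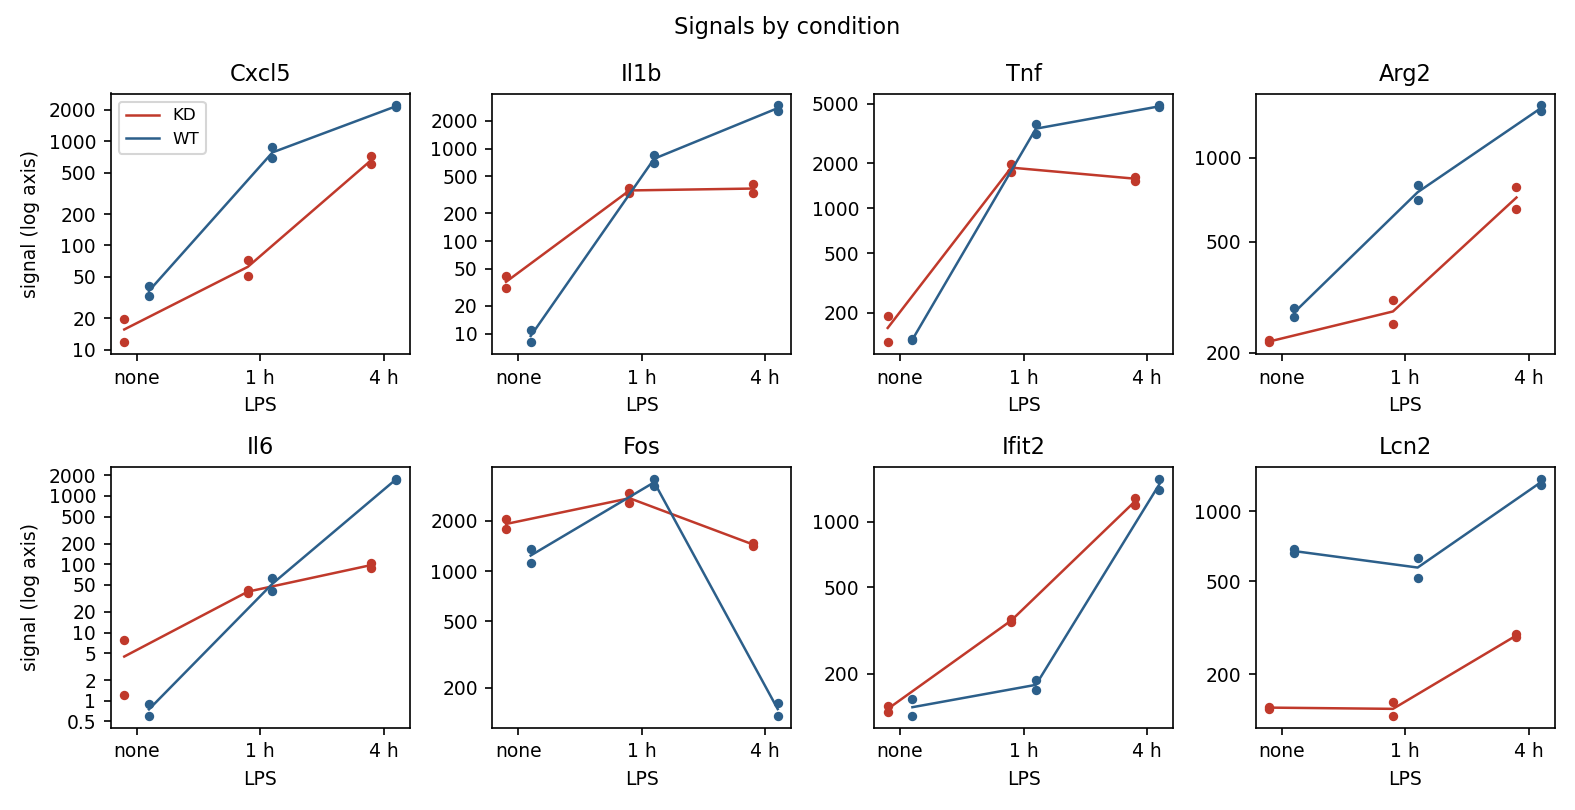
Signals of 8 genes on a log axis in the 3 conditions, none being no LPS; points are single arrays, KD in red at left and WT in blue at right of each condition, and lines join the means of 2 arrays. At 1 h the strains do not overlap for Cxcl5, Il1b, Tnf, Arg2, Ifit2, Lcn2 and Fos and overlap for Il6; Fos at 4 h was 1416 and 1467 in KD and 163 and 136 in WT.

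Other probe sets of the called genes gave a check within the arrays. Of the 193 genes, 88 had another tested probe set; for 68 of these all had the same sign, for 20 at least 1 had the opposite sign, and for 21 at least 1 was called the same way. By chromosome, the share of tested genes called ran from 0.312% on chromosome 18 to 2.48% on chromosome 12. Chromosome 15, which carries Irak4, had 0.975%. Among the 50 genes on each side of Irak4, 18 were tested and limma called 0 at 1 h (1 at an unadjusted p under 0.05), 2 without LPS and 0 at 4 h. Over all genes, 1.55% were called at 1 h, 6.11% without LPS and 6.97% at 4 h. The 1 h share gives little room for a call among 18 genes.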

How the data were processed

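Per the labels, total RNA was prepared with RNeasy and amplified with NuGEN Ovation. What the authors deposited is 1 intensity per probe set and array on a linear scale; per the submitters' processing notes it comes from MAS5, in a version not given in the sources used here. No rescaling was added. The number of arrays limits the precision.

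Of 45101 probe sets, 34958 had 1 gene symbol, 932 several and 9211 none; only the first were named. Symbols were placed on the 19 autosomes through the GRCm38.p6 gene table (34754 found, 204 not). Of 27931 probe sets tested, those of 390 genes on the X or Y chromosome or in mitochondria entered the fit and not the text. Where a gene had several tested probe sets, the brightest stood for it, those with no cross-hybridisation suffix coming first. Values were turned into log2(signal + 4.4), 4.4 being the 20th percentile of all values, which understates folds of dim genes.

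A limma 3.58.1 fit (R 4.3.3) had 1 mean for each of 6 groups over 12 arrays, eBayes with a trend, and Benjamini-Hochberg adjustment over all probe sets tested. The script was tested on simulated data. The members and lists were chosen with earlier results of these data known. Named were the 15 highest and 15 lowest called genes, up to 6 called members of each of 21 pathway and 11 marker lists by size, else the member with the highest signal, Toll-like receptor pathway genes, the 8 highest and lowest of each interaction, and 8 genes called alike in all conditions. Alternatives were other scalings, filters and pseudocounts, no trend, only the arrays compared, a replicate block, mean over probe sets and 12 fits with 1 array left out.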

Additional observations from a re-analysis of the deposited data

Results flagged for a closer look

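Each value here is an interaction tested by limma, a strain difference in 1 condition minus that in another, on the log2(signal + 4.4) scale, and each passed the adjusted threshold of 0.05. With no trend in the variance prior that of Fos alone, 4 h minus 1 h, passed.

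The 1 h difference lay furthest below that without LPS for Scarf1, a scavenger receptor gene (-3.88 ± 0.75), Il1b (-2.68 ± 0.26), Cxcl5 (-2.51 ± 0.3) and Btg2, an antiproliferative gene (-1.76 ± 0.31). Csrnp1 (-1.37 ± 0.28), Tnf (-1.08 ± 0.2), Arg2 (-1.07 ± 0.19) and Cnih4, a cornichon family gene (-1.05 ± 0.18), followed. Of these 8, Btg2 and Cnih4 were not called at 1 h itself. Scarf1 had 6.3 and 6.6 in KD, against 54.6 and 49.5 in WT, at 1 h. Without LPS it had 58.4 and 25.5 in KD, against 23.4 and 4.0 in WT. The size of its interaction therefore rests on dim signals and on replicates that lay far apart without LPS. Btg2 had 131 and 108 in KD, against 69.1 and 45.4 in WT, without LPS, and 158 and 205 in KD, against 310.1 and 294 in WT, at 1 h. Among list members called at 1 h, Egr2 had -0.87 ± 0.13, Tnip1 -0.85 ± 0.17 and Nfkbiz -0.75 ± 0.16.

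The 1 h difference lay furthest above that without LPS for Tnfrsf11b, which encodes osteoprotegerin (1.95 ± 0.37), Shox2, a homeobox gene (1.86 ± 0.37), Gas1, a growth arrest gene (1.86 ± 0.24), and Adam23 (1.78 ± 0.22). Mme, which encodes neprilysin (1.76 ± 0.36), Serping1, the C1 inhibitor gene (1.6 ± 0.3), Cobll1 (1.55 ± 0.29) and Robo1, a Slit receptor gene (1.53 ± 0.27), followed. Several of these were lower in KD without LPS and close to WT at 1 h. Gas1 had 108 and 91.9 in KD, against 384 and 293 in WT, without LPS, and 829 and 628 in KD, against 695 and 606 in WT, at 1 h. Adam23 had 854 and 701 in KD, against 2351 and 1846 in WT, without LPS, and 2067 and 1814 in KD, against 1404 and 1619 in WT, at 1 h. Among list members called at 1 h, Thbs2 had 1.4 ± 0.25 and Ifit2 0.99 ± 0.19. For Tnfrsf11b, another tested probe set had a 1 h difference of -0.57, against 0.98 for the one named.

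The 4 h difference lay furthest below that at 1 h for Il6 (-3.79 ± 0.5), Nr4a3, an orphan nuclear receptor gene (-3.12 ± 0.57), Itgb8, an integrin gene (-3.05 ± 0.66), and Foxp4, a forkhead gene (-2.49 ± 0.5). It lay furthest above for Fos (3.56 ± 0.17), Tifab (2.69 ± 0.33), Nrg2, a neuregulin gene (2.33 ± 0.48), and C130050O18Rik (2.1 ± 0.29). None of these 8 was called at 1 h. Among genes called at 1 h, Il1b had -1.75 ± 0.26, Nlrp3 -1.48 ± 0.29, Ifit2 -1.23 ± 0.19, Oasl2 -1.06 ± 0.22, Rtp4 -1.06 ± 0.22, Ifit1 -0.96 ± 0.2 and Xaf1 -0.88 ± 0.18. Cxcl5 had 1.85 ± 0.3 and Ccnd1 0.82 ± 0.15.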

How the results depend on the processing

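No named gene called at 1 h turned its direction under any alternative that gave it a value. Centring each array on its median turned the median over all genes (0.0359, then -0.229), that of genes LPS lowered (0.0971, then -0.167) and those of the macrophage identity (0.158, then -0.107), glycolysis and hypoxia (0.0404, then -0.224) and ribosomal lists (0.0861, then -0.178). Of the settings, 2 moved the counts most. Centring gave 1412 genes at 1 h (1348 lower), 1266 without LPS and 1885 at 4 h. No trend in the variance prior gave 10 at 1 h (2 higher, 8 lower), 43 without LPS and 313 at 4 h; for the interactions limma then called 0 for 1 h minus no LPS (1089 at an unadjusted p under 0.05) and 1 for 4 h minus 1 h. Fitting only the arrays compared gave 136 genes at 1 h (70 higher, 66 lower) and 357 without LPS (143 higher, 214 lower). It gave 21 for the interaction of 1 h minus no LPS, which had 33 with no filter and 92 with the stricter one. With 1 array left out, counts ran from 79 to 252 at 1 h (30 to 115 higher, 47 to 137 lower), 159 to 793 without LPS, 340 to 967 at 4 h, 8 to 128 for 1 h minus no LPS and 33 to 115 for 4 h minus 1 h. Where an arm was left with 1 array, that array was assumed to vary like the other groups. Replicate numbers did not pair the arrays (correlations of deviations from -0.0682 to 0.0401). The replicate block gave 169 genes at 1 h (77 higher, 92 lower), 698 without LPS, 824 at 4 h, 74 for 1 h minus no LPS and 92 for 4 h minus 1 h. Of 70 named genes called at 1 h, the call was lost by 61 without the trend, 20 with no filter, 18 with only the arrays compared, 11 after quantile normalization, 11 at a pseudocount of 1, 10 with the mean over probe sets, 9 with the replicate block, 4 at a pseudocount of 23.4 and 3 after centring. Leaving out KD replicate 1, KD replicate 2, WT replicate 1 or WT replicate 2 of 1 h lost 39, 32, 32 and 38, and 25 held in all 12 fits. The cause of these losses was not tested. With 2 arrays a group, dim genes have wide errors.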

Other observations

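Called genes outside the lists added to the groups above, and all genes in this section were chosen after their values were seen. Among genes higher in KD at 1 h were further genes of DNA replication and division. Tk1, the thymidine kinase of the S phase, had 116 and 118 in KD, against 37.1 and 56.3 in WT (log2 difference 1.28 ± 0.28, adjusted p = 0.0335). Tpx2, a spindle assembly factor, had 134 and 124 in KD, against 53.7 and 36.2 in WT (log2 difference 1.45 ± 0.3, adjusted p = 0.0181; other tested probe sets 0.11, 0.52 and 1.27, none called). Birc5, which encodes survivin, had 259.9 and 259 in KD, against 101 and 128 in WT (log2 difference 1.16 ± 0.2, adjusted p = 0.00479), and Ezh2, the catalytic subunit of the Polycomb complex that methylates histone H3, had 143 and 170.3 in KD, against 71.7 and 90.4 in WT (log2 difference 0.92 ± 0.22, adjusted p = 0.0458). In these 4 genes both KD arrays lay above both WT arrays. The interferon-induced genes Zbp1, a sensor of Z-form nucleic acids, and Ifi44l had differences of 0.92 ± 0.16 and 1.19 ± 0.21.

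Among genes lower in KD were regulators and growth factor genes. Zc3h12c, a zinc finger gene of the Regnase family, had 116 and 74.1 in KD, against 276 and 200.2 in WT (log2 difference -1.3 ± 0.2, adjusted p = 0.00232). Inhba, which encodes the activin A subunit, had 75.6 and 46.4 in KD, against 113 and 130.2 in WT (log2 difference -0.98 ± 0.23, adjusted p = 0.0421). Prdm1, which encodes the transcriptional repressor Blimp-1, had 151 and 111 in KD, against 243 and 276 in WT (log2 difference -0.98 ± 0.21, adjusted p = 0.0316), and the strains did not overlap in these 3 genes. Tagln, Actg2 and Cdh11 were lower too, with -0.68 ± 0.15 for Tagln, -0.94 ± 0.21 for Actg2 and -0.97 ± 0.15 for Cdh11, while the stromal list held both lower and higher members. Ptger4, the prostaglandin EP4 receptor gene, had 2319.8 and 2503 in KD, against 1847 and 2018 in WT, without LPS, 2112 and 2089 in KD, against 2719 and 3012 in WT, at 1 h and 1839 and 1811 in KD, against 732 and 741 in WT, at 4 h. It was called higher, lower and higher in that order, though another of its tested probe sets had 0.06 at 1 h.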
